A study of Mus musculus with 20 samples.

Results

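The Reg genes encode small secreted C-type lectins, and the 5 of them held by the deposited tables are described here in crypt cells of the mouse small intestine. They are Reg1, Reg3a, Reg3b, Reg3g and Reg4, chosen by gene symbol from the 11284 uniquely named genes that both tables hold, and none of the 5 was absent. Reg2 and Reg3d, neighbours in the same gene cluster, are not analysed here. RNA was sequenced from sorted cells of 8-week-old C57BL/6J mice, all carrying an Lgr5-GFP reporter, in which green fluorescence follows the stem cell receptor gene Lgr5. The KO mice were Itgb7-/- Lgr5-GFP and the WT mice Itgb7+/+ Lgr5-GFP. Itgb7 encodes integrin beta 7, which lymphocytes use to enter the gut and to stay in its epithelium. For each mouse number of a genotype the labels list a GFP-low library, named as transit-amplifying cells, and a GFP-high library, named as stem cells. Same-numbered libraries of a genotype were taken to be from the same mouse. Per the labels' protocols, live EpCAM+ cells lacking CD45, CD31 and TER119 were sorted from EDTA-released crypts. There were 4 groups of 5 libraries, namely KO GFP-low, WT GFP-low, KO GFP-high and WT GFP-high. KO mice carried the numbers 2 to 6 and WT mice the numbers 1, 3, 6, 7 and 8.

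Reg3g binds peptidoglycan and kills Gram-positive bacteria, and with its close relative Reg3b it helps to keep bacteria away from the small-intestinal epithelium. Both are made by enterocytes and Paneth cells and are induced by microbial signals through MyD88 and by interleukin 22 through STAT3. Reg1 was first known from regenerating pancreatic islets, and Reg4 is a marker of secretory cells at the base of the colonic crypt and of enteroendocrine cells.

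Total counts per library ran from 20900412 to 27838403. Itgb7, the deleted gene, is not analysed here because neither table held it, and no check of the genotypes by its level was possible. Lgr5 was lower in GFP-low than in GFP-high cells, by a log2 fold change of -3.91 ± 0.20 (SE) in KO and -2.97 ± 0.33 in WT mice, while Epcam, the epithelial surface marker of the sort, had values of -0.11 ± 0.09 and -0.14 ± 0.09. All 5 stem cell markers fell in GFP-low cells of both genotypes. Markers of differentiated cells were higher there, in 9 of 9 enterocyte, 8 of 8 goblet, 10 of 10 Paneth and 9 of 9 enteroendocrine genes in each genotype, and in 3 of 4 tuft cell genes in KO and 4 of 4 in WT mice. With library totals in place of scaling factors, 7 of 9 enterocyte and 3 of 4 tuft cell genes were called higher in WT mice, and the other counts did not change. Of 7 leukocyte markers only Gzma and Gzmb were in both tables, with sums of 1.16 to 28.8 CPM (counts scaled to a common library size) over all libraries. Paneth markers reached 246570 and 243243 CPM in the GFP-low libraries of WT mice 3 and 8, against 57836.5 to 103519 CPM in those of the other 3 WT mice. These 2 libraries also had the lowest scaling factor, 0.73 in both.

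Reg1 and the Reg3 genes lie together. On mouse assembly GRCm38 (mm10), Reg3b, Reg3a and Reg1 on the plus strand and Reg3g on the minus strand fall within chr6:78370657-78468872, a stretch of 98.2 kb that GENCODE annotates with 6 Reg genes and with no other protein-coding gene. Reg3b spans chr6:78370657-78373466, Reg3a chr6:78380709-78383827, Reg1 chr6:78422711-78428667 and Reg3g chr6:78466269-78468872. Reg4 stands alone on the plus strand at chr3:98222156-98236748. No gene overlaps any of the 5. The longest coding transcripts of Reg3b and Reg3g were 74.7% identical over aligned bases and shared an exact run of at most 35 bases. Other pairs were 61.3% to 74.0% identical, with runs of at most 24 bases. All 100 deposited values of the 5 genes were whole numbers, whereas 13.7% of values in each table were not.

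The upstream sequences of Reg3b and Reg3g are shown because they were more alike than those of any other pair of the 5 genes, and these were the most abundant members. Each line holds the 150 bases before the RefSeq transcript start (GRCm38.p6), 5′ to 3′ on the gene's own strand, at chr6:78370735-78370884 on the plus strand for Reg3b and at chr6:78468875-78469024 on the minus strand for Reg3g. Capitals mark, from left to right, a match to the STAT motif TTCNNNGAA and a TATAAA box in Reg3b, and a match to the NF-kB consensus and a TATAAA box in Reg3g.
Reg3b: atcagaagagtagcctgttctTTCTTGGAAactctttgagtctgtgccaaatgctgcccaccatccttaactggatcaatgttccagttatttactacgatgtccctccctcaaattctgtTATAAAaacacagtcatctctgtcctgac
Reg3g: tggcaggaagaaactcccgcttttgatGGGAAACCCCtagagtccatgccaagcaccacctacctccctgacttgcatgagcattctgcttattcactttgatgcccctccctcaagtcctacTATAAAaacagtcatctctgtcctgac

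The last 24 bases of the Reg3b window lie in an exon of a Reg3b transcript in GENCODE that starts further upstream. Over the last 100 bases before the start, Reg3b and Reg3g were identical at 76 positions, and any other pair of the 5 genes at 56 to 64 positions. Their longest shared run was the last 20 bases, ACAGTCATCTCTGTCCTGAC. Both strands of the 250 bases upstream of each gene were searched. The STAT motif was found in Reg3b alone among the 5, from -129 to -121, and in 7.02% of 32851 windows of the same length. The NF-kB consensus was found in Reg3g alone, from -123 to -114, and in 7.25% of windows. TATAAA was found in Reg1, Reg3b and Reg3g at -30, -29 and -27, with a further copy on the other strand of Reg3g at -161, and in 12.4% of windows. AGATAA, a site for transcription factors of the GATA family, was found in Reg4 alone at -101 and in 9.99% of windows. No matches overlapped, and Reg3a had none. A match is a description of letters and not a measured binding site.

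Reg transcripts took a visible share of the RNA. Summed CPM of the 5 genes is given as a percentage of the common library size, as mean and SD of 5 libraries each. This sum was 0.796% ± 0.333 in KO GFP-low and 0.963% ± 0.30 in WT GFP-low cells. In GFP-high cells it was 0.184% ± 0.069 in KO and 0.233% ± 0.108 in WT mice. A lower scaling factor gives a higher percentage. Factors ran from 0.73 in GFP-low cells of WT mouse 8 to 1.15 in GFP-high cells of KO mouse 2. The percentages are therefore not shares of raw counts, and differences between groups include the scaling. Reg3b and Reg3g made up 53.3% to 90.8% of the summed Reg CPM over the 20 libraries. Reg3b ranked 25th by mean CPM among the 11284 genes in KO GFP-low cells and 27th in WT GFP-low cells. Its ranks in GFP-high cells were 124 in KO and 86 in WT. At the other end, Reg3a ranked 4849 and 3443 in KO and WT GFP-low cells and 9805 and 9785 in KO and WT GFP-high cells.

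**Figure D1:**
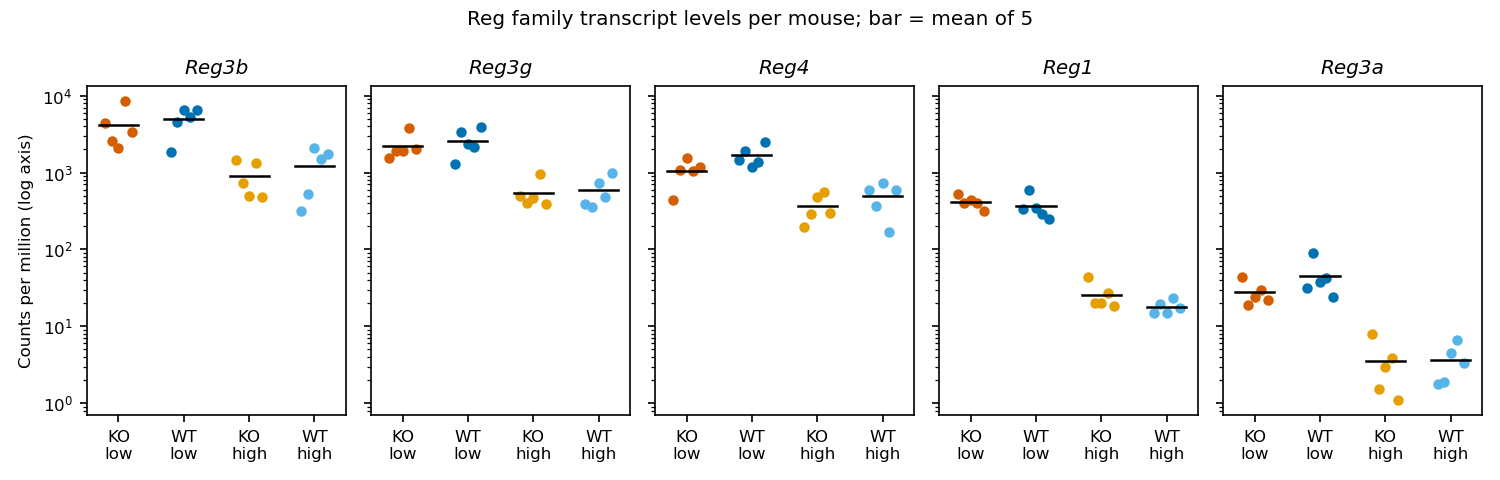
Transcript levels of the 5 Reg genes in each mouse, in CPM on a log axis, with GFP-low groups left of GFP-high groups, KO left of WT, and a bar at the mean of 5 mice. The 5 GFP-low values lie above the 5 GFP-high values of the same genotype except for Reg4 in KO and Reg3b in WT, whose ranges overlap, and KO and WT points overlap in each gene and population.

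Per kilobase of transcript, which allows genes to be compared, the mean level followed the order Reg3b, Reg3g, Reg4, Reg1 and Reg3a in each of the 4 groups. Reg3b averaged 5380.1 CPM per kb in KO GFP-low, 6291 in WT GFP-low, 1154 in KO GFP-high and 1577 in WT GFP-high cells. Reg3g stood at 2909, 3384, 703 and 763 CPM per kb in the same groups. The ranges of these neighbours overlapped in every group, although Reg3b was above Reg3g within 19 of 20 libraries. Reg4 averaged 1040.3, 1653, 358 and 478 CPM per kb, and its range was clear of that of Reg3g only in KO GFP-low cells. Reg1 averaged 461, 402, 28.6 and 19.9 CPM per kb, with a range that met that of Reg4 only in KO GFP-low cells. Reg3a was lowest at 33.7, 54.8, 4.26 and 4.38 CPM per kb, and its range was below that of Reg1 in all 4 groups.

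The first comparison set GFP-low against GFP-high cells within each genotype. Its main fit did not pair the libraries of a mouse, and a paired fit was an alternative. All 5 Reg genes rose in GFP-low cells of KO mice (edgeR quasi-likelihood test, adjusted p under 0.05), where 50.5% of 11282 genes were called, 26.2% higher and 24.4% lower. All 5 also rose in WT mice, where 43.4% of 11281 genes were called, 22.0% higher and 21.4% lower. Reg1 had the largest rise and Reg4 the smallest in both genotypes. In each genotype every gene was higher in the GFP-low library in 5 of 5 mice. Overlap of ranges is given for each Reg gene as a description. How common separated ranges are among all genes is not reported here. The median log2 fold change of the 5 genes was 2.23 in KO and 2.15 in WT mice, against -0.01 for all genes tested in each. In these bulk samples, more Reg-expressing cells and more Reg RNA per cell cannot be told apart. Scaling by library totals alone moved the median of all genes to -0.27 in KO and -0.37 in WT mice. It changed the split of calls from 2954 higher and 2748 lower to 1777 and 4737 in KO mice, and from 2478 and 2416 to 1188 and 4892 in WT mice, and the 5 Reg genes were also called higher under it.

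Reg3b, which acts with Reg3g against bacteria at the mucosal surface, was at 4437, 2603, 2081, 8536 and 3406 CPM in GFP-low cells of KO mice 2 to 6, against 1464, 737, 502, 1329 and 485 CPM in their GFP-high cells. In WT mice 1, 3, 6, 7 and 8 it was at 1854, 4573, 6435, 5299 and 6466 CPM in GFP-low and 316, 527, 2099, 1497 and 1736 CPM in GFP-high cells. The populations did not overlap in KO mice, while the GFP-low value of WT mouse 1 lay below the GFP-high value of WT mouse 6. The log2 fold change was 2.23 ± 0.40 in KO (SE, edgeR adjusted p = 3.94e-04) and 2.00 ± 0.48 in WT mice (adjusted p = 0.00519).

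Reg3g, the peptidoglycan-binding member, was at 1533, 1882, 1934, 3844 and 2021 CPM in GFP-low cells of KO mice 2 to 6, against 499.9, 401, 466, 952 and 391 CPM in their GFP-high cells. In WT mice 1, 3, 6, 7 and 8 it was at 1281, 3395, 2319, 2144 and 3908 CPM in GFP-low and 388, 361, 736, 483 and 974 CPM in GFP-high cells. The populations did not overlap in either genotype, and KO mouse 5 was highest among KO mice in both. The log2 fold change was 2.06 ± 0.28 in KO (edgeR adjusted p = 4.10e-05) and 2.15 ± 0.33 in WT mice (adjusted p = 2.94e-04).

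Reg4, the secretory cell member, was at 439.95, 1084, 1559.95, 1046 and 1181 CPM in GFP-low cells of KO mice 2 to 6, against 198, 289, 486, 554 and 301 CPM in their GFP-high cells. In WT mice 1, 3, 6, 7 and 8 it was at 1454, 1901, 1184, 1379.8 and 2520.3 CPM in GFP-low and 599, 363, 726, 169 and 585 CPM in GFP-high cells. KO mouse 2 had the lowest value of its genotype in both populations, and its GFP-low value lay within the KO GFP-high range. In WT mice the populations did not overlap. The log2 fold change was 1.55 ± 0.31 in KO (edgeR adjusted p = 9.88e-04) and 1.79 ± 0.34 in WT mice (adjusted p = 0.00105).

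Reg1 was at 522, 401, 443, 399 and 317 CPM in GFP-low cells of KO mice 2 to 6, against 43.4, 19.9, 20.1, 27.3 and 18.4 CPM in their GFP-high cells. In WT mice 1, 3, 6, 7 and 8 it was at 334, 601, 342, 291 and 250.1 CPM in GFP-low and 14.7, 19.4, 15.02, 23.6 and 17.1 CPM in GFP-high cells. The lowest GFP-low value, 250.1 CPM, was several times the highest GFP-high value, 43.4 CPM. The log2 fold change was 4.02 ± 0.23 in KO (edgeR adjusted p = 4.45e-08), the 11th largest rise of all genes tested, and 4.34 ± 0.25 in WT mice (adjusted p = 1.72e-07), the 9th largest.

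Reg3a, the least abundant of the Reg3 genes measured, was at 44.1, 19.1, 24.2, 29.3 and 22.1 CPM in GFP-low cells of KO mice 2 to 6, against 8.04, 1.51, 2.99, 3.93 and 1.10 CPM in their GFP-high cells. In WT mice 1, 3, 6, 7 and 8 it was at 31.4, 90.4, 38.0, 41.9 and 24.3 CPM in GFP-low and 1.78, 1.91, 4.45, 6.62 and 3.30 CPM in GFP-high cells. The populations did not overlap, and WT mouse 3 stood highest in GFP-low cells. The log2 fold change was 3.00 ± 0.42 in KO (edgeR adjusted p = 5.24e-05) and 3.63 ± 0.43 in WT mice (adjusted p = 3.53e-05).

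The sizes of these rises kept an order within single mice. As a description, the log2 difference between the populations of a mouse was larger for Reg1 than for Reg3b, Reg3g and Reg4 in 10 of 10 mice, and larger than for Reg3a in 8 of 10. Reg3a in turn rose more than Reg3b and Reg3g in 10 of 10 mice. Reg3b and Reg3g were not ordered, since Reg3b rose more in 3 of 10 mice, with a mean difference of 0.09 ± 0.41 (SD). The genes with the steeper rises, Reg1 and Reg3a, had the lowest levels per kilobase in GFP-high and also in GFP-low cells. The GFP-high level enters each rise, so level and rise are not independent.

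Genes of the pathways known to act on Reg expression moved in both directions between the populations. The counts of each list below stand beside the shares over all genes tested. These were 26.2% higher and 24.4% lower in KO mice, and 22.0% higher and 21.4% lower in WT mice. Of 18 genes for receptors of the interleukin 22, 6 and 17 families and STAT3 signalling, 13 were tested. In KO mice 7 rose and 1 fell (median log2 fold change 0.47), and in WT mice 5 rose and none fell (median 0.29). Stat3, the transcription factor of the pathway, rose by 0.83 ± 0.13 in KO and 0.87 ± 0.11 in WT mice. Il10rb, the shared receptor subunit for interleukins 10 and 22, rose by 0.85 ± 0.12 and 0.75 ± 0.14, and Il17rc, a receptor subunit for interleukin 17, by 1.21 ± 0.18 and 1.12 ± 0.28 in KO and WT mice. With library totals 4 rose and 3 fell in KO mice (median 0.22), and 3 rose and 2 fell in WT mice (median -0.08), so the sign of the WT median depended on the scaling.

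Among 21 tested genes of Toll-like receptor and NF-kB signalling, 6 rose and 5 fell in KO mice (median 0.15), and 2 rose and 4 fell in WT mice (median 0.16). These counts stand beside 50.5% and 43.4% of all genes called in KO and WT mice. With library totals 3 rose and 8 fell in KO mice (median -0.11), and 0 rose and 8 fell in WT mice (median -0.20). Sigirr, a receptor that dampens Toll-like receptor signals, rose by 0.94 ± 0.12 in KO and 0.63 ± 0.12 in WT mice, of which the WT call was lost with library totals. Nod1, a sensor of bacterial peptidoglycan, fell by 1.03 on the log2 scale in KO and by 0.66 in WT mice.

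Other epithelial genes known to respond to interleukin 22 or STAT3 did not move as a block. Of 14 tested, 6 rose and 4 fell in KO mice (median 0.21), and 7 rose and 4 fell in WT mice (median 0.42). With library totals 6 rose and 4 fell in KO mice (median -0.04), and 5 rose and 4 fell in WT mice (median 0.07). Il18, an epithelial cytokine, rose by 2.34 ± 0.15 in KO and 2.84 ± 0.34 in WT mice, and Fut2, which fucosylates surface glycans, by 2.70 ± 0.32 and 2.15 ± 0.46. Clca4b fell by 1.33 on the log2 scale in KO and by 1.22 in WT mice. Lcn2, Saa1, Saa2, Saa3, S100a8 and S100a9, other antimicrobial or acute-phase genes of this list, are not analysed here.

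Of 9 tested genes of retinoid handling, 6 rose and none fell in KO mice (median 0.65), and 5 rose and 1 fell in WT mice (median 0.46). The carrier gene Rbp2 rose by 3.91 ± 0.40 in KO and 4.53 ± 0.25 in WT mice, and Aldh1a1, which makes retinoic acid, by 2.62 ± 0.37 and 3.34 ± 0.29. With library totals 3 rose and 2 fell in KO mice (median 0.39), and 2 rose and 2 fell in WT mice (median 0.08).

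**Figure D2:**
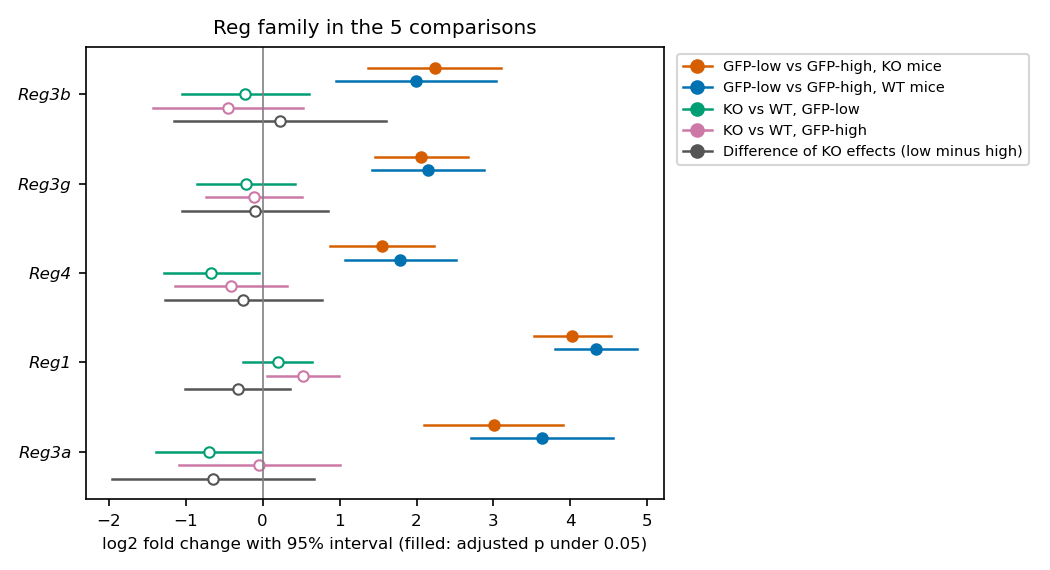
Log2 fold changes of the 5 Reg genes with 95% intervals in the 5 comparisons, with filled points where the adjusted p was under 0.05. The GFP-low against GFP-high intervals all lie above 0, and no point of KO against WT or of the difference of KO effects is filled.

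The second comparison asked whether loss of Itgb7 changed Reg transcripts within a population. It shares its libraries with the first, so the values are given side by side and not as separate evidence. None of the 5 genes passed in GFP-low cells, where edgeR called 1 of 11778 genes (0.00849%), and none passed in GFP-high cells, where it called 0 of 11745 (0%). The 1 called gene, Arhgef10, named here after its value was seen, was lower in KO by 2.30 on the log2 scale (adjusted p = 6.90e-04). At an unadjusted p under 0.05 there were 744 genes in GFP-low and 1150 in GFP-high cells, 2 and 1 of them Reg genes. DESeq2 called 12 genes in GFP-low and 145 in GFP-high cells, and none was a Reg gene. KO and WT ranges overlapped for all 5 genes in both populations.

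In GFP-low cells the estimates for 4 of the 5 genes were below 0, and the median of all genes tested was -0.0035. The share of all genes below 0 is not reported here. With library totals in place of scaling factors that median was 0.14. Reg4 was then at -0.50, Reg3a at -0.49, Reg3b at -0.07, Reg3g at -0.03 and Reg1 at 0.38. The values that follow use the scaling factors. Reg4 averaged 1062 ± 403 CPM in KO and 1688 ± 534 CPM in WT mice (SD, n = 5 each), a log2 fold change of -0.67 with a 95% interval of -1.28 to -0.05 (edgeR adjusted p = 0.770). Reg3a averaged 27.8 ± 9.88 CPM in KO and 45.2 ± 26.2 CPM in WT mice, a log2 fold change of -0.70 with an interval of -1.39 to -0.02 (adjusted p = 0.783). For Reg3a the WT mean included 90.4 CPM in mouse 3, and leaving out single libraries gave values from -0.93 to -0.30. Only 1 of 5 KO mice was above the WT median for either gene.

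Sums of enterocyte and Paneth markers were also lower on average in KO GFP-low cells, with overlapping ranges, and their part in the Reg values was not tested. The 9 enterocyte markers summed to 1404 to 2463 CPM (mean 1746) in KO and 2012 to 3876 CPM (mean 2826) in WT GFP-low libraries. The 10 Paneth markers had means of 87023 CPM in KO and 149415 CPM in WT and summed to 24265.7 to 122348 CPM in KO and 57836.5 to 246570 CPM in WT GFP-low libraries. None of the genes in either marker list passed between KO and WT, with list medians of -0.42 and -0.56 in GFP-low cells against -0.0035 for all genes tested. The leukocyte markers Gzma and Gzmb had higher sums on average in KO, with 3.93 to 28.8 CPM in KO against 1.16 to 14.0 CPM in WT GFP-low libraries, and 3.78 to 28.3 CPM in KO against 1.16 to 14.5 CPM in WT GFP-high libraries. Neither gene passed.

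Reg3b averaged 4213 ± 2575.5 CPM in KO and 4925 ± 1894 CPM in WT GFP-low cells, a log2 fold change of -0.23 with an interval of -1.05 to 0.60 (edgeR adjusted p = 0.955). Reg3g averaged 2243 ± 914 and 2609 ± 1045 CPM in KO and WT, a log2 fold change of -0.22 with an interval of -0.86 to 0.42 (adjusted p = 0.942). Reg1 averaged 416 ± 74.3 and 363 ± 138 CPM in KO and WT, a log2 fold change of 0.20 with an interval of -0.25 to 0.65 (adjusted p = 0.911). Each of these intervals includes a 1.5-fold difference in at least 1 direction.

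In GFP-high cells Reg1 averaged 25.8 ± 10.4 CPM in KO and 18.0 ± 3.65 CPM in WT mice. Each of 5 KO mice was above the WT median of 17.1 CPM, and the log2 fold change was 0.53 with a 95% interval of 0.06 to 0.99 (edgeR adjusted p = 0.447). The value in KO mouse 2, 43.4 CPM, was the highest, and that library also had the largest enterocyte marker sum of the GFP-high libraries, 535 CPM against 259 to 441 CPM in the others. Leaving out single libraries gave log2 fold changes of 0.26 to 0.64.

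Reg3b averaged 903 ± 463 CPM in KO and 1235 ± 777 CPM in WT GFP-high cells, a log2 fold change of -0.45 with an interval of -1.42 to 0.53 (edgeR adjusted p = 0.823). Reg4 averaged 365 ± 148 and 488 ± 221 CPM in KO and WT, a log2 fold change of -0.41 with an interval of -1.14 to 0.32 (adjusted p = 0.758). For both genes none of the 5 KO mice exceeded the WT median. Leaving out single libraries gave -0.69 to -0.17 for Reg3b and -0.63 to -0.23 for Reg4, with the values nearest 0 without WT mouse 6. Sums of secretory markers were lower on average in KO GFP-high libraries. Goblet markers summed to 2449.5 to 4669.7 CPM in KO against 2335 to 5957 CPM in WT. Enteroendocrine markers summed to 121 to 188 CPM in KO against 129 to 560 CPM in WT. Paneth markers differed less, at 17725.7 to 43581.9 CPM (mean 30828) in KO against 14477.5 to 57995.1 CPM (mean 35159) in WT. The median log2 fold changes of the goblet, enteroendocrine and Paneth lists were -0.50, -1.01 and -0.17. Their part in the Reg4 values was not tested, and none of these markers passed between KO and WT. Reg3g averaged 542 ± 234 and 588 ± 261 CPM in KO and WT, at -0.11 with an interval of -0.74 to 0.51 (adjusted p = 0.943). Reg3a averaged 3.51 ± 2.77 and 3.61 ± 2.01 CPM in KO and WT, at -0.04 with an interval of -1.09 to 1.005 (adjusted p = 0.989).

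The difference of the KO effect between GFP-low and GFP-high cells was not significant for any of the 5 genes, nor for any of 11284 genes (0%), by edgeR or by DESeq2. At an unadjusted p under 0.05 there were 353 genes and no Reg gene. The estimates were -0.32 ± 0.33 for Reg1, -0.65 ± 0.63 for Reg3a, 0.23 ± 0.67 for Reg3b, -0.10 ± 0.46 for Reg3g and -0.25 ± 0.49 for Reg4 on the log2 scale (SE). The edgeR adjusted p was 0.9996 for each, in a fit without a mouse term.

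Mice of the same group differed widely in their Reg levels. The SD of log2 CPM within groups was 0.89 for Reg3b, 0.80 for Reg3a, 0.66 for Reg4, 0.57 for Reg3g and 0.40 for Reg1. Over the 8238 genes that averaged 3 or more in log2 CPM, the median SD was 0.20. Of these genes, 93.4% had a smaller SD than Reg1, and 99.4% had a smaller SD than Reg3b. Between the highest and lowest mouse of a group, Reg3b differed 4.10-fold in KO GFP-low, 3.49-fold in WT GFP-low, 3.02-fold in KO GFP-high and 6.65-fold in WT GFP-high cells.

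Part of the spread was shared by the populations of a mouse. Over 10 mice, log2 CPM of Reg3b in GFP-low cells was correlated with that in GFP-high cells, with Pearson's r = 0.82 (permutation p = 0.00537, adjusted p = 0.0322) and Spearman's rho = 0.77 (permutation p = 0.0124, adjusted p = 0.0742). Without the 2 mice farthest from the median r was 0.67, and with genotype means removed it was 0.82. These 6 relations, chosen after the values were seen, were adjusted together. Reg3g had r = 0.63 (permutation p = 0.0482, adjusted p = 0.0965), which was 0.0096 without the 2 farthest mice and so rested on them. For Reg1, Reg3a and Reg4 r was 0.47, 0.31 and 0.47, with permutation adjusted p of 0.215, 0.396 and 0.215. Their rho was 0.42, 0.62 and 0.37, with permutation adjusted p of 0.280, 0.121 and 0.296. Without the 2 farthest mice their r was 0.66, 0.80 and -0.07, so the low r of Reg3a depended on those mice.

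The ratio of Reg3b to Reg3g counts, which needs no scaling between libraries, also went with the mouse. It was 2.90, 1.38, 1.08, 2.22 and 1.69 in GFP-low cells of KO mice 2 to 6, beside 2.93, 1.84, 1.08, 1.40 and 1.24 in their GFP-high cells. In WT mice 1, 3, 6, 7 and 8 it was 1.45, 1.35, 2.77, 2.47 and 1.65 in GFP-low cells, beside 0.814, 1.46, 2.85, 3.10 and 1.78 in GFP-high cells. KO mouse 2 and WT mice 6 and 7 had high ratios in both populations and KO mouse 4 a low ratio in both. On the log2 scale r was 0.77 (permutation p = 0.0115, adjusted p = 0.0346), rho was 0.64 (permutation p = 0.0549, adjusted p = 0.121), and r was 0.60 without the 2 farthest mice. The mean ratio was 1.85 ± 0.72 in KO GFP-low, 1.94 ± 0.64 in WT GFP-low, 1.70 ± 0.74 in KO GFP-high and 2.00 ± 0.96 in WT GFP-high cells (SD, n = 5 each).

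**Figure D3:**
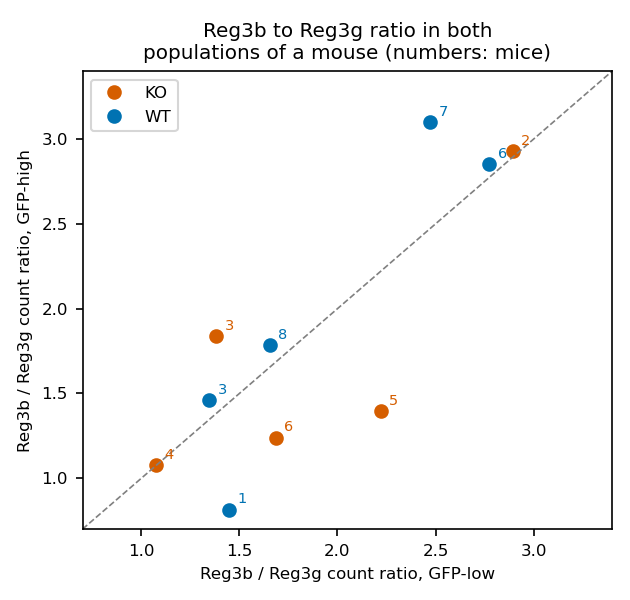
Ratio of Reg3b to Reg3g counts in GFP-low (horizontal axis) and GFP-high cells (vertical axis) of each of 10 mice, numbered as in the labels, with KO and WT in different colours and a dashed line of equal ratios. KO mouse 2 and WT mice 6 and 7 lie at the upper right, and KO mouse 4 at the lower left with 1.08 in both populations.

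Across mice within a population, the highest correlation of any pair in GFP-low cells was that of Reg3b and Reg3g, with r = 0.75 (permutation p = 0.0139, adjusted p = 0.0938) and rho = 0.87 (permutation p = 0.00210, adjusted p = 0.0420). In GFP-high cells r was 0.75 (permutation p = 0.0122, adjusted p = 0.0938) and rho was 0.79 (permutation p = 0.00918, adjusted p = 0.0918). Without the 2 farthest mice r was 0.65 and 0.72 in GFP-low and GFP-high cells. Reg3a and Reg3b had a similar r of 0.76 in GFP-high cells (permutation p = 0.0141, adjusted p = 0.0938; rho = 0.75, permutation p = 0.0180, adjusted p = 0.1199), and 0.29 in GFP-low cells. Of the 20 relations between pairs in both populations, 0 passed by Pearson's r after adjustment. With genotype means removed, 2 passed, both between Reg1 and Reg3a, with r = 0.87 in GFP-low (permutation adjusted p = 0.0306) and r = 0.79 in GFP-high cells (permutation adjusted p = 0.0484). These permutations shuffled the centred values over both genotypes and did not allow for the removed means, so their p may be too small. With genotype means kept, r for Reg1 and Reg3a was 0.55 in GFP-low and 0.60 in GFP-high cells, and rho was 0.30 and 0.49. Without the 2 farthest mice that r was -0.005 in GFP-low and 0.22 in GFP-high cells, so it rested on those mice.

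Levels of single Reg genes were then set beside summed levels of 6 marker lists in the same libraries, 60 relations in all, chosen after the values were seen and adjusted together. Of these, 4 passed by Pearson's r. Reg4 was correlated with the Paneth markers in GFP-low cells (r = 0.94, permutation p = 2.8e-04, adjusted p = 0.0168; rho = 0.84, permutation p = 0.00412, adjusted p = 0.0712) and in GFP-high cells (r = 0.85, permutation p = 0.00292, adjusted p = 0.0438; rho = 0.83, permutation p = 0.00496, adjusted p = 0.0712). Without the 2 farthest mice r was 0.79 and 0.67. In GFP-high cells other secretory lists were close behind, without passing. For tuft cell markers r was 0.81 (permutation adjusted p = 0.0793; rho = 0.81), and 0.87 without the 2 farthest mice. For goblet and enteroendocrine markers r was 0.68 and 0.65 and rho was 0.76 and 0.82. In GFP-low cells r was 0.14, 0.59 and 0.60 for tuft, goblet and enteroendocrine markers. KO mouse 2 had the lowest Reg4 and the lowest Paneth marker sum, 24265.7 CPM, of all GFP-low libraries. RSEM divides reads between near-identical genes, so single lysozyme and defensin genes of the Paneth list are uncertain. Such genes carry much of the Paneth marker sum, so its r with Reg4 does not speak for each of the listed genes.

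Reg3a was correlated with the enterocyte markers in GFP-low cells (r = 0.86, permutation p = 9.1e-04, adjusted p = 0.0228; rho = 0.85, permutation p = 0.00312, adjusted p = 0.0712) and in GFP-high cells (r = 0.87, permutation p = 0.00114, adjusted p = 0.0228; rho = 0.92, permutation p = 4.9e-04, adjusted p = 0.0294). Without the 2 farthest mice r was 0.72 and 0.75. WT mouse 3 had both the highest Reg3a level and the highest enterocyte marker sum, 3876 CPM, of the GFP-low libraries, and KO mouse 2 had both highest values of the GFP-high libraries. With library totals in place of scaling factors, Reg3a in GFP-low cells and Reg4 in GFP-high cells each missed the threshold (r = 0.84 and 0.83, permutation adjusted p = 0.0540 for both). Whether cell makeup accounts for the Reg levels was not tested.

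**Figure D4:**
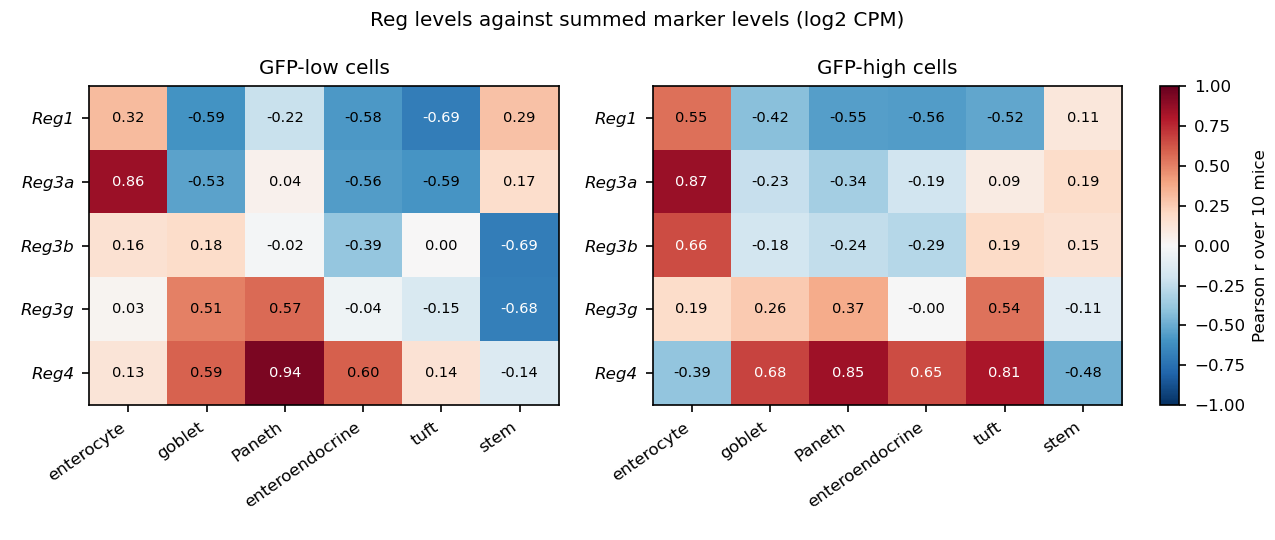
Pearson's r over 10 mice between log2 CPM of each Reg gene and the log2 summed CPM of each marker list, in GFP-low cells (left) and GFP-high cells (right), on a colour scale of -1 to 1. Reg4 has its highest r with Paneth markers, 0.94 and 0.85, and Reg3a with enterocyte markers, 0.86 and 0.87.

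A wider ranking, by Pearson's r over 20 libraries after group means were removed, gives the genes most like each Reg gene among 8233 genes, as a description. Mogat2 (0.88), Rbp2 (0.86) and Apoa4 (0.85), genes of fat and retinol absorption, led the ranking for Reg1, followed by Serpinb6a and Mdh2 (0.81 each). For Reg3a the leading genes were Rbp2 (0.88), the fatty acid carrier Fabp1 (0.85), Serpinb6a (0.81) and the glutathione transferases Gstk1 (0.79) and Gsta1 (0.78). Reg1 and Reg3a had r = 0.81 with each other. Rbp2, Apoa4 and Fabp1 also belong to the enterocyte list above.

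The glutathione transferase Mgst2 (0.90) headed the list for Reg3b, with the selenoprotein Selenow (0.89), the glucose 6-phosphate transporter Slc37a4 (0.88), the metallothionein Mt1 (0.82) and Cox7a2 (0.80). Rab20, a small GTPase, and the zinc transporter Slc39a1 (0.80 each) were the most similar to Reg3g, with Dynlt1 and Mgst2 (0.78 each) and the glutathione peroxidase Gpx2 (0.77). Reg3b and Reg3g had r = 0.74 with each other.

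Secretory cell genes led for Reg4, with the lipase Pnliprp2 and the protease inhibitor Spink4 (0.91 each), and Rnase1, the Paneth cell protease Mmp7 and the lectin Itln1 (0.90 each). Spink4 is in the goblet list and Mmp7 and Itln1 are in the Paneth list above. The r of Reg4 was 0.47 with Reg3g, -0.12 with Reg3b, -0.33 with Reg3a and -0.46 with Reg1.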

How the data were processed

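The files deposited hold RSEM expected counts, in separate tables for GFP-low (11779 entries, lowest mean count 16.8) and GFP-high cells (11746 entries, lowest mean count 17.0). Per the submitters' processing notes, TopHat2, Bowtie2, RSEM and build mm10 were used, without versions or roles, and strand is not stated. Expected counts were rounded to whole numbers. Each comparison used the quasi-likelihood test of edgeR 4.0.16 (R 4.3.3) with TMM factors, filterByExpr (minimum count 10) and Benjamini-Hochberg adjusted p under 0.05 over all genes tested. KO against WT used the 10 libraries of a population, GFP-low against GFP-high the 10 of a genotype, and the difference of KO effects all 20. All 5 Reg genes passed the filter in each fit. CPM were TMM-scaled over 20 libraries, and log2 CPM used a prior count of 2. Correlations used two-sided permutation tests (100000 resamples). Positions and transcript lengths came from GENCODE M21 on GRCm38, and upstream sequences from RefSeq (GRCm38.p6), in which all 5 symbols matched.

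Same-numbered GFP-low and GFP-high libraries of a genotype deviated together (r from 0.15 to 0.69 over 8238 genes), so the numbers were taken to pair the populations of a mouse. For number 3 the evidence was weak, with r of 0.19 in KO and 0.15 in WT mice beside 0.196 and 0.11 with the most similar library of another number. A fit with the mouse as a block was an alternative. Alternatives were DESeq2 1.42.0, RLE factors, library totals, no filter, a mean of at least 100 counts, 1 fit of all groups, a replicate block, and each library left out. Named genes were the Reg genes, Lgr5 and Epcam as checks, members of each list chosen from the up to 4 with the smallest p in either genotype, and the 5 genes most like each Reg gene. The Reg genes and gene lists were chosen with earlier results of these data known. No libraries of a group were alike within sampling noise (smallest chi-square per gene 19.4 over 40 pairs). The labels do not tie mice to litters or batches. The main fits of GFP-low against GFP-high cells and of the difference of KO effects had no mouse term. Their p-values treat the libraries of a mouse as independent and do not measure the spread of the difference within mice. Other p-values measure the spread between these mice. The code was tested on simulated data.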

Additional observations from a re-analysis of the deposited data

Results flagged for a closer look

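In 4 of the 20 sets of 5 mice (5 Reg genes in 4 groups), 1 mouse stood apart from the others by more than Dixon's 95% critical value of 0.71 for the gap as a share of the range. Chance gives about 1 in 20 only for independent sets of normally distributed values. These gaps were taken on CPM without a log scale, and the sets share libraries. No chance rate is therefore given for the count of 4, in each of which the highest value stood apart. Reg3g was at 3844 CPM in GFP-low cells of KO mouse 5, above 1533 to 2021 CPM in the other KO mice, and at 952 CPM in its GFP-high cells, above 391 to 499.9 CPM in the others. The gaps were 0.789 and 0.806 of the range. Reg1 was at 601 CPM in GFP-low cells of WT mouse 3, above 250.1 to 342 CPM in the other WT mice (gap 0.739). Reg3a was at 90.4 CPM in the same library, above 24.3 to 41.9 CPM in the others (gap 0.734). By library totals, an alternative chosen after seeing the data, the gaps in this library were 0.411 for Reg1 and 0.559 for Reg3a, below the critical value, whereas those of Reg3g in KO mouse 5 were 0.896 and 0.801. Reg3a in GFP-low cells of KO mouse 2 then passed it, at 47.2 CPM (gap 0.729). The library of WT mouse 3 had a scaling factor of 0.73, and it also had the highest sum of enterocyte markers among WT GFP-low libraries, 3876 CPM against 2012 to 3344 CPM. The part of these sums in the Reg values was not tested.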

How the results depend on the processing

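The rise of each Reg gene in GFP-low cells kept its call in both genotypes under all 7 other settings and with each library left out. Log2 fold changes then ran from 1.27 for Reg4 to 4.29 for Reg1 in KO mice and from 1.40 for Reg4 to 4.46 for Reg1 in WT mice. The replicate block that pairs the populations of a mouse changed no call, with values of 4.08, 3.18, 2.21, 2.07 and 1.54 for Reg1, Reg3a, Reg3b, Reg3g and Reg4 in KO mice. Between KO and WT, mice share only the numbers 3 and 6, and same-numbered libraries did not deviate together (r from -0.32 to 0.04). A replicate block on these numbers fits each mouse of an unshared number exactly. Its KO effect therefore rests only on mice 3 and 6 of each genotype and is not an estimate from all 10 libraries. It gave Reg4 in GFP-high cells a log2 fold change of -0.79 (edgeR adjusted p = 0.0166) and Reg1 in GFP-low cells -0.34. Reg3a was at -1.19 in GFP-high and -1.51 in GFP-low cells (edgeR adjusted p = 0.405 and 0.0606). This block called 122 genes in GFP-high and 36 in GFP-low cells. For the difference of KO effects the block was the mouse, and Reg3b was at -0.0046. DESeq2 called 145 and 12 genes in GFP-high and GFP-low cells, and a mean of at least 100 counts left 0 called in GFP-low cells. With single libraries left out, 0 to 1 genes were called in GFP-high and 1 to 2 in GFP-low cells. KO-against-WT estimates that were not called changed sign in places. With single libraries left out, Reg3a in GFP-high cells ran from -0.60 to 0.30 and Reg3g from -0.42 to 0.14, and the difference of KO effects from -0.20 to 0.47 for Reg3b and -0.39 to 0.20 for Reg3g. With library totals that difference was 0.025 for Reg3g, and r between Reg3a and Reg3g in GFP-low cells was -0.013. Removing genotype means gave 2 passing pairs of Reg genes in place of 0, by permutations that did not allow for the removed means. Reg3a in GFP-high cells had no value under the mean of 100 counts. Apart from the block on shared numbers, which drops the other mice from the estimate, the cause of these shifts was not tested. Genes below the tables' lowest mean counts, leukocyte genes among them, cannot be judged here.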
